A study of Mus musculus with 8 samples.

Results

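The genes described here encode the machinery that prepares and carries out DNA synthesis in a dividing cell. They are 10 genes chosen by name, with earlier results of these data known. Among them are the helicase subunits Mcm2, Mcm3, Mcm4, Mcm5, Mcm6 and Mcm7 and the sliding clamp Pcna. The others are the ribonucleotide reductase subunits Rrm1 and Rrm2, and thymidylate synthase, Tyms. All 10 were on the array, through 15 of its 41174 probes, and 9 of them were among the 18265 genes that could be tested. The cells were monocytes, phagocytes of the blood, of the subset that carries much of the surface antigen Ly-6C (Ly-6C-high). The study set such cells kept in the spleen beside their counterparts in the blood.

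The cells came from healthy, untreated female C57BL/6 mice, an inbred strain, aged 8 to 12 weeks and fed chow. How many mice gave the samples is not established here, since no label ties a sample number to a mouse. The blood group and the spleen group held 4 samples each. Both tissues had the same genotype, sort and treatment, so that the tissue is the only difference the labels give. The sorting gate took cells high for CD11b and Ly-6C. Cells bright for Ly-6G, a granulocyte antigen, for the lymphocyte antigens CD90 and B220, or for NK1.1 and CD49b were left out, as were those bright for CD11c, I-Ab or F4/80. A sample was made of 1000 cells, and 5 ng of their RNA was amplified before hybridization to a 1-colour array.

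Before a cell copies its DNA, a ring of 6 different MCM proteins is loaded in an inactive form at each origin of replication, a step called licensing. In S phase the ring is activated as the helicase that opens the DNA, PCNA encircles the new duplex to hold the polymerases, and ribonucleotide reductase and thymidylate synthase supply the building blocks. Many of these genes are controlled by E2F transcription factors and are transcribed most as a cell enters S phase. Circulating monocytes are mostly cells that no longer divide, whereas their precursors in bone marrow and spleen do.

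Values are log2 levels of the authors' value table, in which 6.8 was taken as the background level. A difference is the spleen mean minus the blood mean, so that 1 is a doubling. The levels of different probes depend on the probes themselves and are not set against each other. The table's columns for blood 1, blood 2 and blood 3 do not match the scanner files deposited for those samples, whose rank correlations with their own columns were 0.842, 0.852 and 0.872. The 5 other columns matched their files. The labels do not say which deposit of these 3 samples is the right one, so results are also given with the 5 matching columns alone, which leave 1 blood sample, and with the scanner files. The monocyte genes Csf1r and Ccr2 were bright in every blood sample, at 12.56 to 13.41 for Csf1r and 13.89 to 14.47 for Ccr2. In spleen they read 12.77 to 13.77 and 13.43 to 13.87, with no Ccr2 value for spleen 3. All spleen values of Ccr2 lay below its blood values, as for 258 of all 18265 genes. Ly6c1 read 12.41 to 13.08 in blood and 11.96 to 12.89 in spleen, a difference of -0.33 ± 0.27 (SE). Of 7 tested monocyte markers, 2 were higher in spleen and 5 lower, with a median difference of -0.13. With each gene taken minus its own mean over the arrays, their median was lowest in spleen 3 at -0.38 and spleen 4 at -0.35.

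The sequences that carry the findings are the probes for Tyms, 1 probe each for Pcna and Mcm3, and stretches of promoter. The Tyms probes are shown because part of them is shared with a probe for the pseudogene Tyms-ps, on another chromosome. Capitals mark runs of 12 or more letters that a Tyms probe has in common with the Tyms-ps probe, or the reverse.
Tyms probe A_52_P292651: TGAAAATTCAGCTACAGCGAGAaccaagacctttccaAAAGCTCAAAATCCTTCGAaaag
Tyms probe A_51_P398366: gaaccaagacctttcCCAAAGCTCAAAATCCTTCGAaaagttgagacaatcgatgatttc
Tyms-ps probe A_51_P351363: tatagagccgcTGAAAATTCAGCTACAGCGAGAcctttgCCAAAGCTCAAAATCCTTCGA
The first Tyms probe shared 41 of its 60 letters with the Tyms-ps probe in such runs, and the second shared 21. Both Tyms probes also overlap each other over 40 letters, of which 39 are the same, and the change is A17C counted from the first letter of the overlap. They are therefore not independent measurements.

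The Pcna probe and a second Mcm3 probe are shown because the first is printed on the array 10 times and the other disagrees with its gene's main probe.
Pcna probe A_51_P396351: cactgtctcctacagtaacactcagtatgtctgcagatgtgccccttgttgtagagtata
Mcm3 probe A_52_P364776: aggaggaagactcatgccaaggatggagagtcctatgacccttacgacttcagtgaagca
On the mouse build mm7, per the file headers, the Pcna probe lies within chr2:131990537-131990674 and the Mcm3 probe within chr1:21000880-21001396, both on the reverse strand. Each span is longer than the 60 letters of its probe. No exon or UTR annotation of that build was used here.

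Promoter windows from RefSeq (GRCm38.p6) reach from 250 bases before a gene's start to 50 bases after it, and 9 of the 10 genes had an entry, Mcm4 being the exception. The letters of the E2F motif searched were TTTGGCGC, TTTCCCGC, TTTCGCGC and TTTGCCGC, on both strands. They were found in windows of 4 of these 9 genes, Mcm3, Mcm5, Mcm6 and Mcm7, against 2.26% of all 32851 promoters of the same length and 2.6% of all genes with an entry. The CCAAT box, CCAAT on either strand, was found in 8 of the 9 and in 37.41% of all promoters. A GC box, GGGCGG on either strand, was found in 7 of the 9 and in 35.66% of all promoters, and TATAAA in 0 of the 9 and in 13.62%. Such matches describe letters and not binding.

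Upstream letters are shown for Mcm5 and Mcm6, which hold E2F words, and for Rrm2, which had the largest difference of the 9 genes and none. Capitals mark the E2F words in Mcm5 and Mcm6, where words on opposite strands overlap, and the CCAAT box in Rrm2.
Mcm5, chr8:75109329-75109467, forward strand: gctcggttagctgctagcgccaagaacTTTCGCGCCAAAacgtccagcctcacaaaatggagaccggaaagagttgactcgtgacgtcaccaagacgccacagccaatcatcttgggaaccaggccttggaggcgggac
Mcm6, chr1:128359706-128359885, reverse strand: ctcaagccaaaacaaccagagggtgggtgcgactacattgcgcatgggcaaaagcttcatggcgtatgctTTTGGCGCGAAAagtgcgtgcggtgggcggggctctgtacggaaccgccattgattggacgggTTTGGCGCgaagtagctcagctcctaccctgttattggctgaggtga
Rrm2, chr12:24708074-24708253, forward strand: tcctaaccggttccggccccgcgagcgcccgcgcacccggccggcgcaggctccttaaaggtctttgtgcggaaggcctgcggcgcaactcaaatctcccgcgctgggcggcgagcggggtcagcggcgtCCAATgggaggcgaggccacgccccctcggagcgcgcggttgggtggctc
The coordinates are those of GRCm38.p6. Mcm6 held 3 E2F words in these letters and Mcm5 held 2, while the Mcm3 words lay 20 and 39 bases after the start and are not printed. Mcm5 and Mcm6 share the motif. Their differences between the tissues are described next, and a link between motif and difference was not tested.

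Across the 9 tested genes, every difference between spleen and blood was above 0, from 0.19 for Mcm4 to 2.61 for Rrm2, with a median of 1.13. The median over all 18265 genes was -0.01, and 48.8% of them lay above 0. None of the 9 passed the adjusted threshold of 0.05 in limma with Benjamini-Hochberg adjustment, and neither did any other gene, a share of 0%. At an unadjusted p under 0.05, 3 of the 9 were higher in spleen, Mcm3, Mcm7 and Rrm2, where 3.09% of all genes were. Without spleen 1 this count was 6, and without spleen 3 it was 2. For 2 of the 9, Mcm3 and Rrm2, the 4 spleen values all lay above the 4 blood values, and 1.88% of all genes showed this. A second Mcm3 probe, described below, overlapped between tissues and differed by -0.58, and the mean over both probes differed by 0.52. A difference of at least 1 was seen for 5 of the 9 and for 2% of all genes. With the scanner files the median was 0.34 or 0.29, by normalization, Mcm5, Mcm6 and Mcm7 were lower in spleen, and 1 gene had an unadjusted p under 0.05. With the 5 matching columns the median was 0.69, Rrm1 was lower in spleen, and 0 genes had such a p. Rrm2 and Tyms were kept by the filter on dim probes largely through their spleen values, so these counts describe the tested genes and not all 10. The genes were also chosen with earlier results of these data known, so the shares of all genes beside the counts are no test of enrichment. In sorted cells a smaller share of dividing cells and less RNA per cell cannot be told apart.

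**Figure D1:**
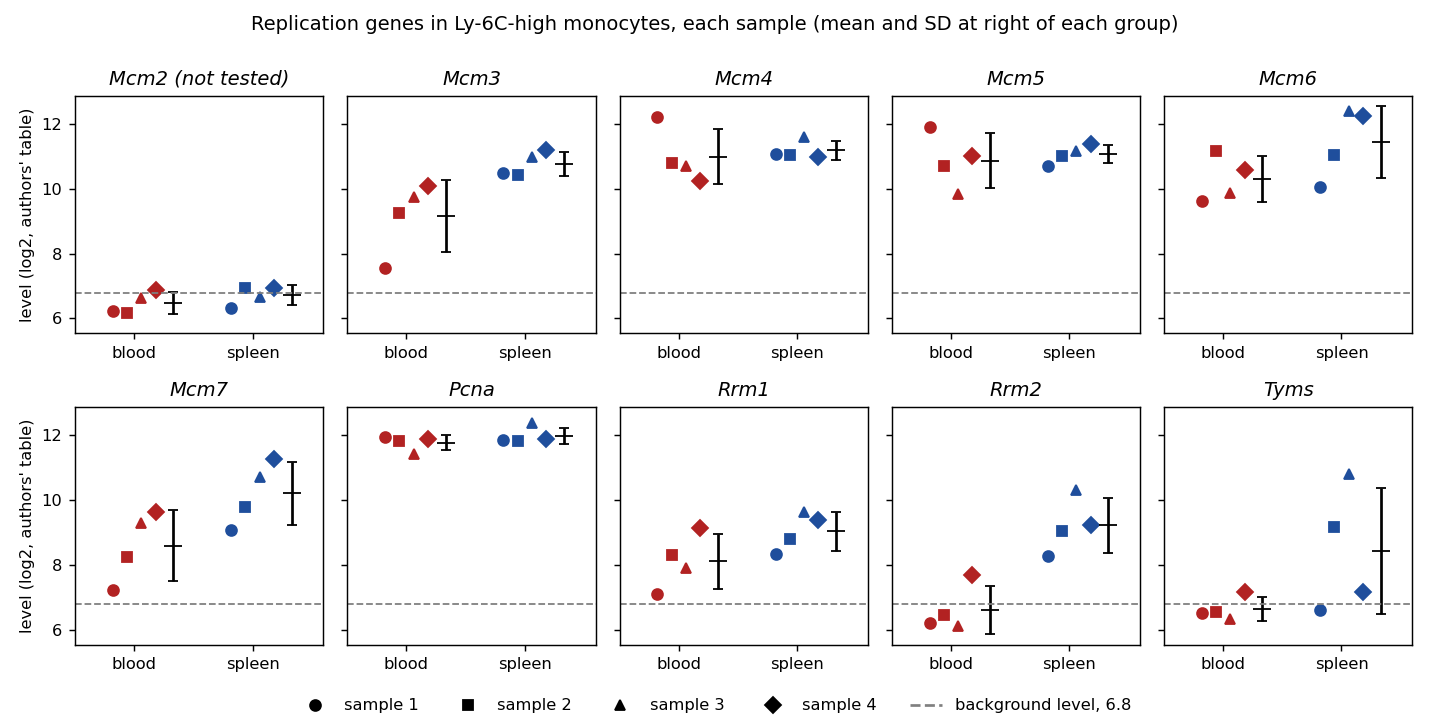
Log2 level of the probe that stands for each gene in every sample, with blood in red and spleen in blue, the mean and SD in black beside each group, and the background level of 6.8 dashed. Rrm2 and Mcm3 show no overlap between tissues, Mcm4, Mcm5 and Pcna lie at like levels in both, and Mcm2 stays near the background level.

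The helicase genes fell into unlike patterns, and Mcm3 was the one whose tissues did not overlap. Its product is one of the ring's ATPase subunits, next to MCM5 in the ring. Its level was 7.56, 9.26, 9.74 and 10.08 in blood samples 1 to 4, and 10.50, 10.43, 10.98 and 11.19 in spleen samples 1 to 4. Every spleen value lay above every blood value, and blood 1 was far below the other blood samples. The difference was 1.61 ± 0.50 (SE, n = 4 per tissue), a 3.06-fold higher level with a 95% interval of 0.49 to 2.74. The limma p was 0.00972 and the Benjamini-Hochberg adjusted p was 0.692. Without blood 1 the difference was 1.08, and with the 5 matching columns alone it was 0.69.

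The second Mcm3 probe, printed above, did not follow the first. It read 7.58, 9.78, 7.53 and 9.17 in blood and 7.36, 6.84, 9.17 and 8.37 in spleen, so that the tissues overlapped and the spleen mean was lower by 0.58. Both probes are annotated to the same transcript, and the brighter one stands for the gene. With the mean over both probes, the difference for Mcm3 was 0.52.

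Mcm7, which encodes a core subunit of the helicase, had the same mean difference as Mcm3 with a wider spread. Its levels were 7.21, 8.23, 9.29 and 9.65 in blood and 9.08, 9.77, 10.70 and 11.27 in spleen. The lowest spleen sample lay below 2 of the blood samples, so the tissues overlapped. The difference was 1.61 ± 0.61 (SE, n = 4 per tissue; 95% interval 0.24 to 2.98), with a limma p of 0.0257 and an adjusted p of 0.790. It was 1.15 without blood 1 and 0.56 with the 5 matching columns.

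Mcm6, the subunit whose promoter held 3 E2F words in the letters above, differed mainly through 2 of the spleen samples. Its levels were 9.63, 11.17, 9.87 and 10.57 in blood and 10.06, 11.06, 12.40 and 12.26 in spleen. Spleen 3 and spleen 4 stood above all blood samples, while spleen 1 and spleen 2 lay within the blood range. The difference was 1.13 ± 0.55 (SE, n = 4 per tissue; 95% interval -0.10 to 2.36), with an adjusted p of 0.941 in limma, and with the 5 matching columns it was 0.88.

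Mcm4 and Mcm5, the other helicase subunits that were bright enough to test, had like levels in the tissues on average. Mcm4 read 12.22, 10.81, 10.70 and 10.25 in blood and 11.09, 11.06, 11.60 and 10.99 in spleen, a difference of 0.19 ± 0.40 (SE, n = 4 per tissue; 95% interval -0.70 to 1.08). Mcm5 read 11.92, 10.71, 9.84 and 11.02 in blood and 10.72, 11.02, 11.18 and 11.39 in spleen, a difference of 0.20 ± 0.40 (SE, n = 4 per tissue; 95% interval -0.70 to 1.1). In both genes blood 1 was the highest of all 8 samples and the spleen samples lay close together. The intervals reach past a doubling for Mcm4 and Mcm5, so a difference of that size cannot be told from none with these samples. Without blood 4 the Mcm4 difference was -0.058, and without blood 1 it was 0.60. Without blood 3 the Mcm5 difference was -0.14, and without blood 1 it was 0.55. With the 5 matching columns the differences were 0.94 for Mcm4 and 0.05 for Mcm5.

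Mcm2, the licensing subunit often used as a marker of cells able to divide, was near the background level in both tissues. It read 6.22, 6.17, 6.63 and 6.87 in blood and 6.32, 6.96, 6.68 and 6.96 in spleen, at or above background on 3 of 8 arrays, and was not tested. Its single probe does not show whether the gene was transcribed. A second Mcm4 probe, at or above background on 1 array, and a second Rrm1 probe, below it on all 8, were likewise left out.

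Pcna, the sliding clamp, was the most even of the 10 genes and the one with 10 spots per array. Its level was 11.93, 11.84, 11.43 and 11.90 in blood and 11.84, 11.81, 12.37 and 11.88 in spleen. Only spleen 3 stood above the blood range and only blood 3 stood below the spleen range. The difference was 0.20 ± 0.22 (SE, n = 4 per tissue), and its 95% interval, -0.30 to 0.70, lay within a doubling either way. Without blood 3 it was 0.09, without spleen 3 it was 0.07, and with the 5 matching columns it was 0.08. The SD over the 10 spots of an array was 0.0763 to 0.174 on the 5 matching arrays. An interval within a doubling either way was found for 55.1% of all tested genes.

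Rrm1 and Rrm2 encode the large and the small subunit of ribonucleotide reductase, which makes deoxyribonucleotides. The small subunit is the one whose amount is usually tied to S phase. Rrm1 read 7.09, 8.30, 7.91 and 9.13 in blood and 8.32, 8.79, 9.64 and 9.40 in spleen, with overlap through blood 4. Its difference was 0.93 ± 0.45 (SE, n = 4 per tissue; 95% interval -0.08 to 1.93), with an adjusted p of 0.941 in limma. Without blood 1 it was 0.59, and with the 5 matching columns it was -0.10.

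Rrm2 had the largest difference of the 9 genes. It read 6.19, 6.44, 6.12 and 7.70 in blood and 8.28, 9.05, 10.32 and 9.22 in spleen. Only blood 4 was above the background level among the blood samples, while all 4 spleen samples were above it and above every blood sample. The difference was 2.61 ± 0.48 (SE, n = 4 per tissue; 95% interval 1.54 to 3.68), with a p of 0.000335 and an adjusted p of 0.191 in limma. Because 3 of the 4 blood arrays gave no level above background and the 4 spleen arrays alone met the filter, no fold is given. With dim values set to the background level the difference was 2.19, and with the 5 matching columns it was 1.52. Leaving out any 1 sample left it between 2.24 and 2.97.

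Tyms, the enzyme that makes thymidylate, was high in spleen 2 and spleen 3 and near the background level elsewhere. The first probe printed above read 6.51, 6.56, 6.33 and 7.16 in blood and 6.6, 9.15, 10.81 and 7.15 in spleen. The second, which overlaps it, read 6.36, 6.28, 6.38 and 7.19 in blood and 6.56, 9.09, 10.84 and 7.20 in spleen. The Tyms-ps probe gave the same pattern, 6.64, 6.54, 6.68 and 7.18 in blood and 6.8, 8.80, 10.51 and 7.0 in spleen. Which of the transcripts gave the signal cannot be told apart, given the letters they share. A further probe that the files place in Tyms, and that shares no run of more than 7 letters with the Tyms-ps probe, read 6.48 to 7.36 in blood and 6.82 to 7.45 in spleen.

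The Tyms difference was 1.79 ± 0.80 (SE, n = 4 per tissue; 95% interval -0.01 to 3.59), with a p of 0.0511 and an adjusted p of 0.921 in limma. It was 1.27 with the 5 matching columns, 1.0 without spleen 3 and -0.011 between spleen 4 and blood 4, the pair of samples hybridized on the same slide. The SD was 1.93 in spleen and 0.36 in blood.

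**Figure D2:**
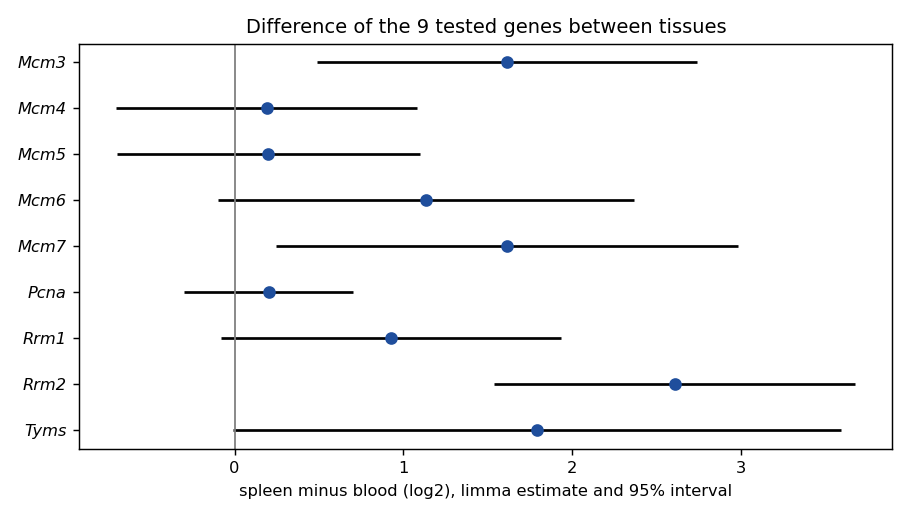
Difference between spleen and blood (log2) for the 9 tested genes, with the limma estimate as a point and its 95% interval as a line. The intervals of Mcm3, Mcm7 and Rrm2 lie above 0, and the interval of Pcna is the narrowest.

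Seen by sample, the genes did not move as 1 block. Spleen 3 had the highest level of 5 of the 9 genes, Rrm2, Tyms, Mcm6, Rrm1 and Pcna, and spleen 4 that of Mcm3 and Mcm7. Blood 1 was the lowest sample for Mcm3, Mcm6, Mcm7 and Rrm1 and at the same time the highest for Mcm4 and Mcm5. Blood 3 was the lowest for Rrm2, Tyms, Pcna and Mcm5. Over the 8 arrays, which share tissue and normalization, the 36 pairs of genes had Pearson correlations from -0.44 for Mcm3 with Mcm4 to 0.93 for Mcm3 with Mcm7, with a median of 0.58. Mcm4 and Mcm5 had a correlation of 0.64 with each other. These values describe the arrays and carry no test.

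**Figure D3:**
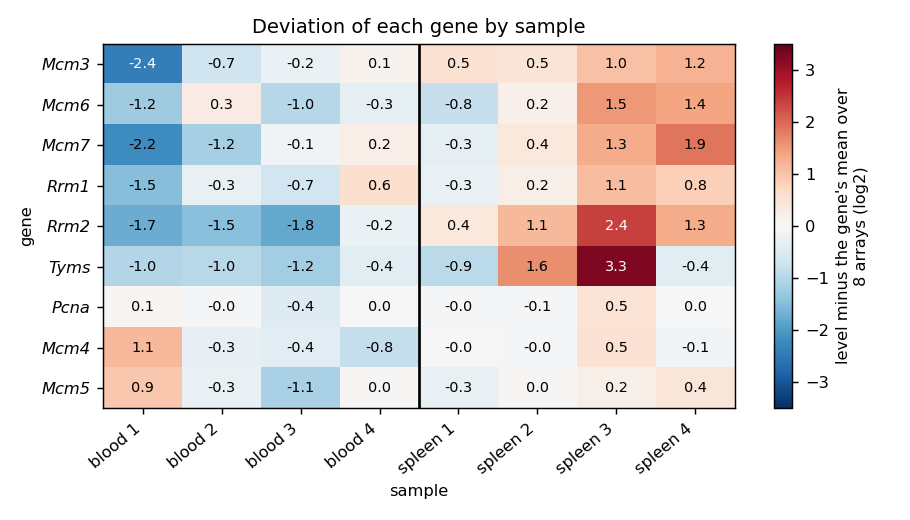
Level of each tested gene minus its own mean over the 8 arrays (log2), with samples in columns, blood left of the line and spleen right of it. Spleen 3 is above the mean for all 9 genes, and blood 1 is below it for 6 genes and above it for Mcm4, Mcm5 and Pcna.

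Pairs of subunits were then compared within each sample, which removes a shift that both genes share. The 5 pairs were chosen after the values had been seen, so their values are a description, with no test. Centred on its mean over the 8 samples, the log2 level of Rrm2 minus that of Rrm1 was -0.24, -1.20, -1.13 and -0.78 in blood and 0.62, 0.92, 1.33 and 0.49 in spleen. The tissues did not overlap, and Rrm2 differed by 1.68 more than Rrm1. Leaving out any 1 sample left this value between 1.51 and 1.88. It rests in part on Rrm2 values below background in 3 of the blood samples.

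The helicase pairs depended more on single blood samples. Mcm3 differed by 1.41 more than Mcm5, and by 0.53 more without blood 1. These values use the brighter Mcm3 probe, while the second Mcm3 probe, at or above background on all 8 arrays, differed by -0.58. Mcm7 differed by 1.42 more than Mcm4, and by 0.55 more without blood 1. Mcm6 differed by 0.94 more than Mcm4, and by 0.31 more without blood 1. Mcm7 differed by 0.48 more than Mcm6, and by 0.069 more without blood 2. In these 4 pairs the tissues overlapped.

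**Figure D4:**
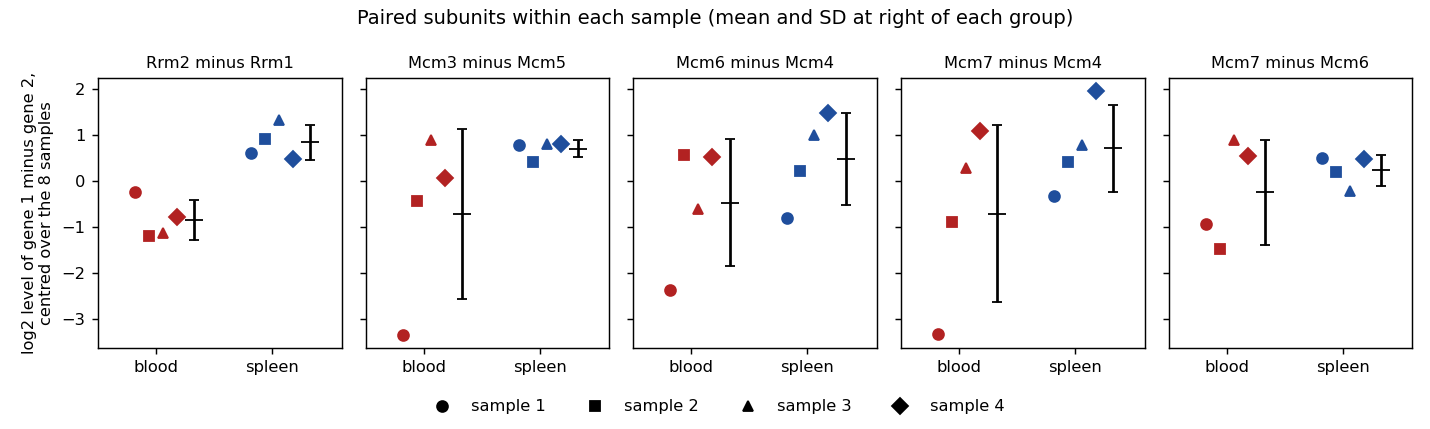
Log2 level of one gene minus that of another in each sample, centred on the mean over the 8 samples, for 5 pairs, with the mean and SD of each tissue in black. The tissues are apart for Rrm2 minus Rrm1, while blood 1 lies far below the other samples for Mcm3 minus Mcm5 and Mcm7 minus Mcm4.

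Other genes of DNA replication were taken from lists by role, 78 genes of which 77 were on the array and 68 could be tested. Of these, 43 were higher in spleen and 25 lower, with a median difference of 0.18 and a range from -0.42 to 1.59. None passed the adjusted threshold, and 9 were higher and 0 lower at an unadjusted p under 0.05 in limma, beside 3.09% and 2.34% of all genes. In the origin recognition complex, which marks where replication starts, 3 of 5 tested genes were higher, with a median of 0.04. Orc6 differed by -0.36 ± 0.70 (SE), and Orc1 was below the background level on most arrays.

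Among the 12 tested genes that load the helicase or fire origins, 9 were higher, with a median of 0.29. Cdc6 and Cdt1, the loading factors, differed by 0.52 ± 0.49 and 0.12 ± 0.31 (SE). Gmnn, the inhibitor of Cdt1, differed by -0.05 ± 0.41 (SE). Cdc45, which completes the active helicase, differed by -0.32 ± 0.48 (SE), and Gins1 and Mcm10 by 0.34 ± 0.41 and 0.45 ± 0.31 (SE). Of the kinase that fires origins, the catalytic subunit Cdc7 differed by 0.42 ± 0.29 and its activator Dbf4 by 1.27 ± 0.44 (SE). Dbf4 read 6.37 to 6.85 in blood and 6.73, 7.82, 9.18 and 8.03 in spleen, with a p of 0.0184 and an adjusted p of 0.740 in limma. It was the one gene of this role with a difference of at least 1.

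The replicative polymerases and primase had 7 of 8 tested genes higher, with a median of 0.29. Pola1 differed by 0.44 ± 0.32 (SE), and Prim1 and Pole were not tested because their probes lay below background. Pold1, the catalytic subunit of polymerase delta, was singled out after its values were seen. Its blood values lay between 6.92 and 7.54 and its spleen values between 7.74 and 9.03, a difference of 1.32 ± 0.31 (SE) and an adjusted p of 0.448 in limma. At the fork, 9 of 14 tested genes were higher, with a median of 0.09. The flap nuclease Fen1 differed by 0.00 ± 0.23, the ligase Lig1 by 0.08 ± 0.33, the clamp loader subunit Rfc3 by 0.18 ± 0.28 and the single-strand binding subunit Rpa2 by 0.20 ± 0.36 (SE).

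In nucleotide supply, the role of Rrm1, Rrm2 and Tyms, 4 of 9 other genes were higher and the median was -0.06. Tk1, thymidine kinase, differed by -0.32 ± 0.62 (SE). Rrm2b, the small subunit used outside S phase, differed by 0.27 ± 0.25 and Samhd1, which degrades deoxyribonucleotides, by -0.27 ± 0.22 (SE). Dut, which makes the precursor that Tyms acts on, read 7.64 to 8.57 in blood and 8.48 to 9.32 in spleen and differed by 0.83 ± 0.28 (SE), with an adjusted p of 0.733 in limma. Ctps, which makes CTP, was singled out after its values were seen and differed by 1.59 ± 0.28 (SE), with no overlap and an adjusted p of 0.169.

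Behind the fork, 4 of 5 tested chromatin assembly genes were higher, with a median of 0.45. Chaf1a and Chaf1b, subunits of the same histone chaperone, differed by -0.31 ± 0.36 and 0.71 ± 0.38 (SE), and Slbp, which binds histone mRNA, by 0.45 ± 0.23 (SE). Of 12 tested E2F and retinoblastoma genes 7 were higher, with a median of 0.19. E2f1 differed by 0.13 ± 0.60, E2f4 by 0.26 ± 0.41 and Rb1 by 0.36 ± 0.22 (SE). The 3 tested relatives of the MCM genes were all lower, by 0.17 to 0.42, and Mcm8 was not tested.

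Genes of mitosis, the stage that follows S phase, had a higher median difference than the lists of other replication genes. Their median was like that of the 9 tested genes. Of 22, 16 could be tested and 15 were higher, 10 of them at an unadjusted p under 0.05 and 8 without overlap, beside 3.09% and 1.88% of all genes, with a median of 1.13. These counts describe the tested genes, since a gene dim in blood could pass the filter through spleen alone. This list, like the others, was also chosen with earlier results of these data known. Ccna2 and Pbk, both without overlap, were below background on all 4 blood arrays. Top2a read 6.50, 6.59, 6.52 and 6.86 in blood and 8.80, 10.04, 10.77 and 9.22 in spleen, a difference of 3.09 ± 0.39 (SE) with an adjusted p of 0.0536 in limma. Mki67 differed by 1.59 ± 0.48 (SE), with an adjusted p of 0.659. The median of the 16 deviations was highest in spleen 3 at 1.04 and lowest in blood 2 at -0.84.

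**Figure D5:**
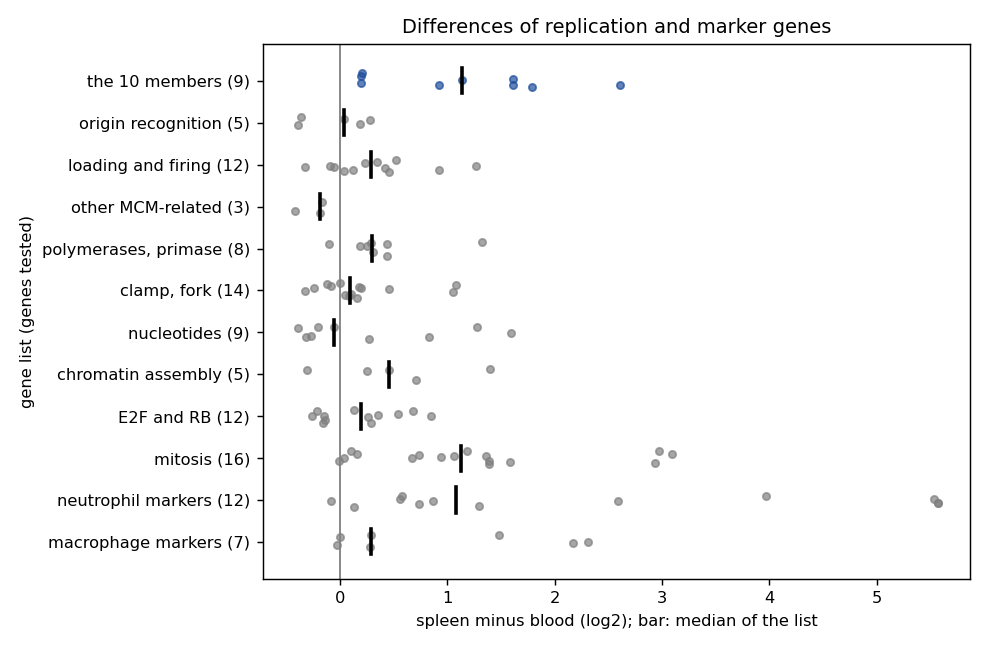
Difference between spleen and blood (log2) of each tested gene of a list as a point, with the list's median as a bar and the number of tested genes in parentheses. The 9 tested genes, the mitosis list and the neutrophil markers have medians above 1, and the lists of origin recognition, fork and nucleotide genes have medians near 0.

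Markers of other cells moved with these differences in part. Of 12 tested neutrophil and granule markers, 11 were higher in spleen, 7 at an unadjusted p under 0.05 and 6 without overlap, beside 3.09% and 1.88% of all genes, with a median of 1.08. Their summed linear level was 3660 to 6950 in blood and 44300 to 114000 in spleen, and it was highest in spleen 3, the sample with the highest Rrm2 and Tyms. The summed level of the 9 replication genes was 8140 to 14000 in blood and 11300 to 23700 in spleen. The early granule genes Mpo, Elane and Prtn3 differed by 0.87 ± 0.29, 0.56 ± 0.51 and 0.13 ± 0.23 (SE). The late granule gene Ltf, singled out after its values were seen, differed by 5.54 ± 0.65 (SE). The part of neutrophil lineage cells in the replication gene differences was not tested.

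Of 7 red pulp macrophage markers, 6 were higher and 3 did not overlap (1.88% of all genes), with summed levels of 11300 to 16700 in blood and 13000 to 17700 in spleen. Vcam1, Spic and Cd5l differed by 2.31 ± 0.37, 1.48 ± 0.43 and 0.28 ± 0.24 (SE), and the part of such cells was not tested. Of the progenitor markers, Kit and Gata2 lay below background on all 8 arrays. Cd34 was above background in 3 blood samples, at 6.84 to 7.66, and in 1 spleen sample, at 8.63, a difference of 0.02 ± 0.47 (SE). Flt3 differed by 0.46 ± 0.30 (SE). Myb, singled out after its values were seen, was the progenitor marker without overlap, at 7.36 to 7.90 in blood and 8.01 to 8.68 in spleen. It differed by 0.78 ± 0.23 (SE), with a p of 0.00782 and an adjusted p of 0.659 in limma. The 5 tested progenitor markers had a median of 0.02, with summed levels of 732 to 1200 in blood and 1050 to 1520 in spleen. Of the erythroid markers, Klf1 and Rhag lay below background on all 8 arrays, the 5 tested had a median of -0.24, and the summed levels were 809 to 934 in blood and 832 to 937 in spleen. Alas2, singled out after its values were seen, went the other way without overlap, by 0.87 ± 0.24 (SE), with a p of 0.00558 and an adjusted p of 0.631 in limma. The part of progenitor and erythroid cells was not tested. B cell, T cell and NK cell markers had medians of 0.01, 0.06 and 0.07. The 6 tested dendritic cell markers had a median of 0.46, with summed levels of 7970 to 12700 in blood and 8710 to 23000 in spleen. Of these dendritic cell markers 5 were higher and 1 lower, with differences from -0.23 to 1.80. The largest was that of Itgax, 1.80 ± 0.48 (SE), the 1 gene of them without overlap (1.88% of all genes). The 7 tested platelet markers had a median of -0.40, with summed levels of 1940 to 9430 in blood and 5100 to 5810 in spleen. Pf4 differed by -2.66 ± 0.82 (SE), with a p of 0.0093 and an adjusted p of 0.687 in limma. The part of dendritic cells and platelets was not tested.

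With the scanner files in place of the table, all 8 samples included, 3 helicase genes changed sign. The differences were -0.47 for Mcm5, -0.69 for Mcm6 and -0.51 for Mcm7 with each array scaled to its 75th percentile. The same setting gave 0.34 for Mcm3, 0.53 for Mcm4, 0.40 for Pcna, 0.19 for Rrm1, 1.89 for Rrm2 and 1.78 for Tyms. The direction of the Mcm5, Mcm6 and Mcm7 differences thus differed between the table and the scanner files. The other 6 genes were higher in spleen in both. Besides the 3 blood samples, the sources differ in background handling and normalization, and the cause was not tested. Within the table, Mcm5 also changed sign without blood 3, at -0.14.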

How the data were processed

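RNA of 8 samples was amplified and then hybridized to Agilent 1-colour arrays. Per the file headers, the scanner files hold spot intensity values from Agilent Feature Extraction 9.5.1.1. The authors deposited a value table on a log2 scale, and limma is the tool given for it in the submitters' processing notes. Its columns have equal medians, 7.31, and rank probes as the scanner's median signal in the 5 matching arrays, so the deposited log2 values are read as normalized between arrays without background subtraction, which narrows differences of dim probes. No other normalization step is stated in the sources used here.

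Of 41174 probes, 22944 (55.7%) were named through RefSeq and the rest kept the file's name. Probes were kept at or above 6.8 on at least 4 of 8 arrays with at least 3 values per tissue (25471 probes), and the brightest probe stood for a gene. From 6.8 up, at least 95% of probes in each step of 0.1 were well above background on the 5 matching arrays. Spleen was compared with blood with limma (version 3.58.1, R 4.3.3; lmFit, then eBayes), with Benjamini-Hochberg adjustment over 18265 genes at 0.05 and all 8 samples unpaired. Numbers 1 to 4 occur in both tissues, but no label ties a number to a mouse. Same-numbered samples correlated at 0.091 to 0.14 in their deviations, and differently numbered ones at -0.116 to 0.033. A pairing by mouse is therefore not excluded, and fits with a replicate block are given below. P-values measure the spread between samples, whose number of mice is not established here, and their precision is limited by how few arrays there are. On simulated data 92.5% of 200 genes changed by 3 (log2) among 18265 were recovered. That change is larger than the difference of any tested replication gene, the largest being 2.61 for Rrm2. The simulation therefore does not show how often differences of their size would be missed. In the real data the mitosis gene Top2a differed by 3.09 and did not pass, with an adjusted p of 0.0536 in limma.

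The 10 genes and all lists were chosen with earlier results of these data known. Named pathway genes were picked by role (1 of them is not reported here), named markers are the first 3 measured of a list, and others are said to be chosen after their values were seen. Alternatives covered the replicate block, variance model, array weights, probe choice, filter, source of values, slide and each sample left out.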

Additional observations from a re-analysis of the deposited data

Results flagged for a closer look

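In 160 groups of 4 values, 9 had a highest or lowest sample that stood apart from the other 3 by Dixon's test, where chance gives about 1 in 20. Spleen 3 stood above the other spleen samples for Mcm4 at 11.60 (others 10.99 to 11.09), for Pcna at 12.37 (11.81 to 11.88) and for the origin firing gene Gins1 at 8.95 (7.21 to 7.47). Blood 3 was below the other blood samples for Gins1 at 6.73 (7.61 to 7.72). Blood 4 was above the other blood samples for the second Tyms probe at 7.19 (6.28 to 6.38), where the others lay below background. Spleen 2 was above the other spleen samples for Tk1 at 10.40 (8.15 to 8.52). Outside the replication genes, spleen 1 was high for the progenitor marker Cd34 at 8.63 (6.54 to 6.66), blood 1 was low for the platelet marker Pf4 at 6.39 (10.07 to 10.64) and blood 4 was high for Itpr3 at 8.77 (7.78 to 7.93).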

How the results depend on the processing

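In 22 alternatives the counts of the 9 replication genes and of the other replication genes past the adjusted threshold were 0, as in the unpaired fit, and the median difference of the 9 stayed above 0 in 23, at 0.29 to 1.59. Of the single genes' differences under an alternative, 193 kept their direction and their side of the threshold and 12 changed sign. From the scanner files, Mcm5, Mcm6 and Mcm7 were at -0.47, -0.69 and -0.51 with the 75th percentile and -0.51, -0.71 and -0.54 with normexp. Rrm1 was at -0.10 with the 5 matching columns and -0.22 with their scanner files, a setting chosen after seeing the data. Within the slide that held both tissues, Pcna was at -0.015 and Tyms at -0.011. Without 1 sample, Mcm5 ranged from -0.14 (blood 3) to 0.55 and Mcm4 from -0.058 (blood 4) to 0.60. The cause was not tested. The count of all genes called, 0, was 13 under a random replicate block (correlation 0.21), 1 under a fixed one, 9 under array weights, 8 under an intensity trend, 7 with the mean over probes, 1 above background on all 8 arrays, 4 and 4 with the scanner files, 1 without blood 1 and spleen 3 (also chosen after seeing the data) and 0 to 3 without 1 sample. No label ties a replicate number to a mouse, so the block is not a pairing by design. At an unadjusted p under 0.05, 3 of the 9 genes became 6 with the random block or without spleen 1, 1 with the scanner files and 0 with the 5 matching columns. The lowest adjusted p of Rrm2 was 0.0936. Rrm2 and Tyms had no probe above background on all 8 arrays and thus no value there. Signal near background limits Mcm2, Rrm2 in blood and Tyms.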

Other observations

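The genes outside all lists whose levels over the 8 arrays were most like the mean profile of the 9 tested genes are given as a description, with no test. Itpr3, a calcium channel of the endoplasmic reticulum, had a Pearson correlation of 0.974 with that profile, Trp53inp2 0.974, Cyb5r4 0.969, 5730507H05Rik 0.945, Cd24a 0.943, LOC672028 0.942 and Ddx51, an RNA helicase, 0.942. A probe that the files name only by a sequence record had 0.979. Cd24a, a surface protein of immature blood cells, read 10.54, 10.77, 10.72 and 11.81 in blood and 12.29, 11.94, 13.50 and 13.04 in spleen, with no overlap. Its difference was 1.74 ± 0.40 (SE), with an adjusted p of 0.428 in limma. The 8 arrays share tissue and normalization.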
